A study of Mus musculus with 18 samples.

Results

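The transcription factors *Wt1*, *Lmx1b*, *Tcf21*, *Foxc1*, *Foxc2* and *Foxd1*, known regulators of podocyte identity, were read in sorted cells of the mouse glomerulus. The 6 genes were chosen by name from the gene symbols of the array, among 22909 distinct symbols on 28856 transcript clusters, the probe groups that stand for a transcript. Each of the 6 had 1 transcript cluster with no other symbol. RNA from mice 5 weeks of age was read on 18 Affymetrix arrays (Mouse Gene 1.0 ST), which make 6 groups of 3. Podocytes were sorted with a GFP reporter transgene, mesangial cells with *Meis1-GFP* and endothelial cells with *Tie2-GFP*, each from mice labelled *Cd2ap* -/- or wild type. The mutant allele, *Cd2ap* tm1Shaw, is carried by every cell of the mouse, so each cell type was both mutant itself and part of a diseased glomerulus. The mesangial controls are marked +/- in the column names but wild type in the sample records, and whether those mice were heterozygous is not given in the sources used here.

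Podocytes are the epithelial cells that wrap the glomerular capillaries and form the slit diaphragm, the last part of the filter. Their gene expression is set up by a small group of DNA-binding factors. WT1 is a zinc finger protein that binds near many podocyte genes, and its mutation causes Denys-Drash and Frasier syndromes. LMX1B is a LIM homeodomain protein mutated in nail-patella syndrome. TCF21, also called POD1, is a basic helix-loop-helix protein, and FOXC1, FOXC2 and FOXD1 belong to the forkhead family. FOXD1 also marks the stromal progenitors from which mesangial cells derive. CD2AP is an adapter protein at the slit diaphragm, and the question asked of the mutants here is whether its loss was accompanied by other levels of these factors.

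Signals are given on the linear scale of the deposited values, and the arrays of a group are called A, B and C in column order. Array medians lay between 62.8 and 71.6, and the study's minimum of 100 was taken as the level below which a gene was not tested. *Cd2ap* itself read 1546 to 2108 in wild type and 1478 to 1512 in mutant podocytes, 922 to 1123 and 797 to 870.4 in mesangial cells, and 757 to 859 and 891 to 966 in endothelial cells. The mutant to wild type ratio was 0.851 in podocytes (adjusted p = 0.504, limma), 0.809 in mesangial cells (adjusted p = 0.151) and 1.13 in endothelial cells (adjusted p = 0.336). None passed the threshold, so in all 3 cell types the genotype rests on the labels. Each sort was highest in its own markers. The summed signal of 7 podocyte markers was 9448 to 13331 in podocytes, that of 7 endothelial markers was 14274 to 16246 in endothelial cells, and that of 7 mesangial markers was 6187 to 9639 in mesangial cells. Wild type podocyte arrays also held mesangial (2899 to 3736) and endothelial marker signal (4132 to 5449), more than mutant podocyte arrays (945 to 2607 and 668 to 2479). Mutant podocyte arrays held more smooth muscle and juxtaglomerular (1193 to 3242 against 923 to 954) and parietal epithelial marker signal (757 to 1011 against 548 to 572), and less podocyte marker signal (9448 to 11638 against 11677 to 13331). Wild type mesangial array C stood apart. Its summed podocyte markers were 3723 against 509 and 552 in arrays A and B, its endothelial markers 7246 against 2202 and 2640, and its tubule markers 1016 against 425 and 401. Results that rest on this array are given with and without it. In bulk RNA, fewer cells of a type and less RNA per cell cannot be told apart.

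**Figure D1:**
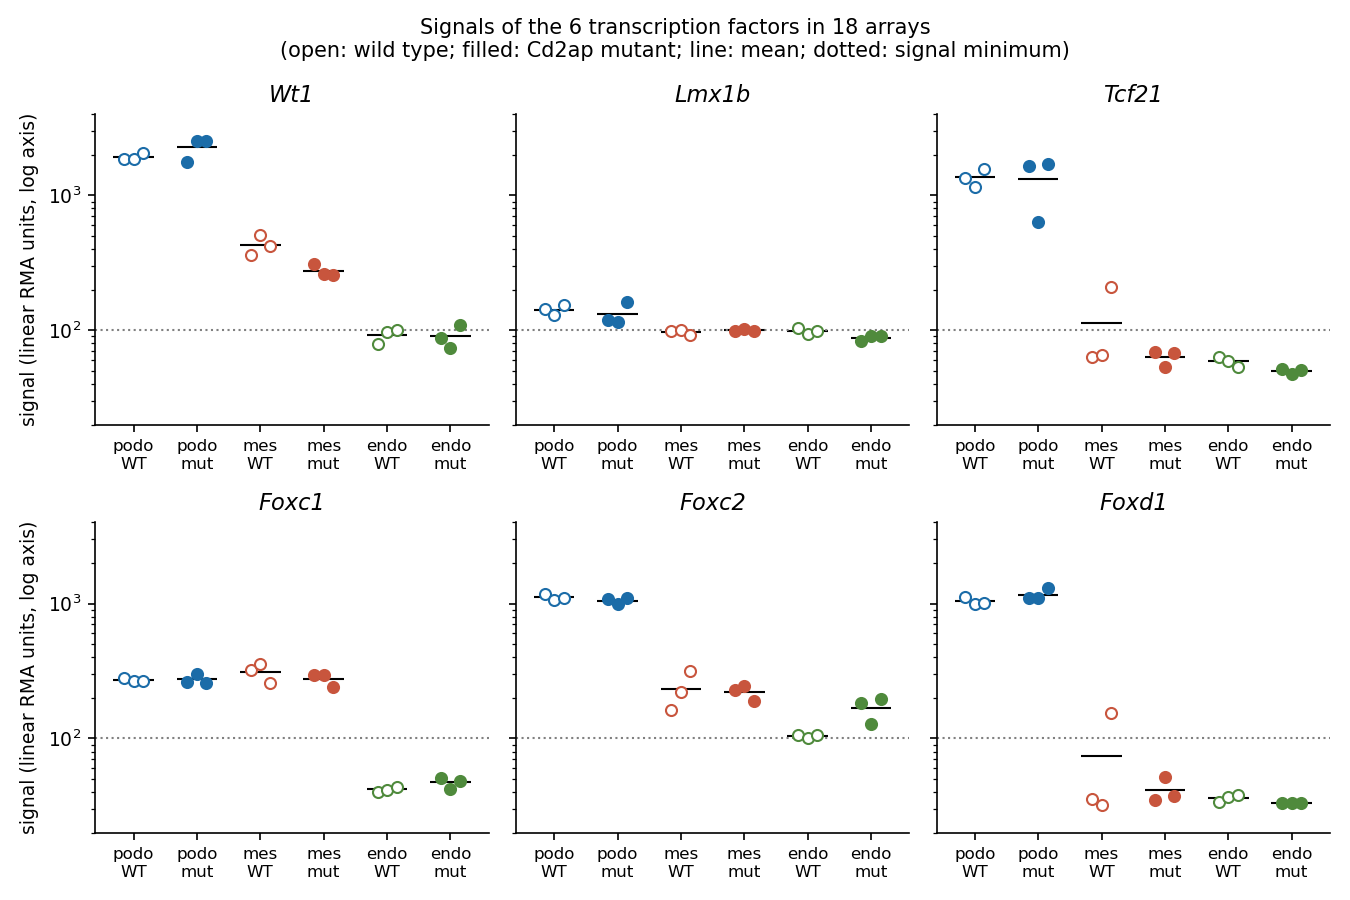
Signals of the 6 factors in every array, on a log axis, by cell type (podocyte, mesangial, endothelial) and genotype (open, wild type; filled, *Cd2ap* mutant), with the mean of 3 arrays as a line and the signal minimum of 100 dotted. *Tcf21* and *Foxd1* are high in podocytes and reach 100 elsewhere in 1 wild type mesangial array, *Wt1* and *Foxc2* are also above 100 in all mesangial arrays, and *Foxc1* is alike in podocytes and mesangial cells.

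To find in which glomerular cell types each factor was present in the controls, the groups labelled wild type were compared pairwise. All 6 factors were higher in podocytes than in endothelial cells, 5 of the 6 were higher in podocytes than in mesangial cells, and *Foxc1* was the exception. Of all clusters tested, 16.5% were higher in podocytes than in endothelial cells and 10.5% higher than in mesangial cells at an adjusted p under 0.05. The median log2 difference of the 6 factors was 3.90 for podocytes minus endothelial cells and 2.24 for podocytes minus mesangial cells, beside -0.02 and -0.04 over all clusters tested. A signal below 100 lies near the array medians, and a fold against a group with every array below 100 depends on the background of the probes. Such folds are given as a lower bound, the podocyte or mesangial mean (geometric) over 100, and with them the median against endothelial cells was 3.40. Of the 6 factors, *Wt1*, *Foxc1* and *Foxc2* were also higher in mesangial than in endothelial cells, where 15.5% of all clusters were.

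*Wt1* was highest in podocytes, intermediate in mesangial cells and lowest in endothelial cells. Its signal was 1855, 1851 and 2048 in wild type podocytes (mean 1918 ± 112, SD, n = 3). In wild type mesangial cells it was 363, 506 and 419 (429 ± 71.8), and in wild type endothelial cells 79.2, 97.4 and 101 (92.5 ± 11.7). None of these groups overlapped. The podocyte level was 4.50 times the mesangial level (95% interval 3.62 to 5.60, adjusted p = 0.000231, limma) and 20.8 times the endothelial level (17.2 to 25.2, adjusted p = 8.09e-08). The mesangial level was 4.62 times the endothelial level (3.60 to 5.93, adjusted p = 8.02e-05). The endothelial signal lay near the minimum, so the 2 ratios to it depend on the background as well.

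The mesangial *Wt1* signal stood beside low podocyte markers. Apart from array C, the summed signal of the 7 markers was 496 to 574 in mesangial arrays, with 0 to 3 of the 7 at 100 or more. In wild type arrays A and B and the 3 mutant arrays, *Nphs1* read 53.8 to 61.1, below the minimum of 100. It encodes nephrin of the slit diaphragm. *Wt1* read 259 to 506 in the same arrays, above the minimum, and the levels of different probes are not compared. Expressed as a percentage of the wild type podocyte mean of the same gene, *Wt1* was at 18.9% and 26.4% in wild type arrays A and B and *Nphs1* was at 4.93% and 4.71%. Array C, with *Nphs1* at 14.2% and *Podxl*, which encodes podocalyxin of the podocyte surface, at 26.0%, had *Wt1* at 21.8%, between the other arrays. Without array C the wild type mesangial to endothelial ratio of *Wt1* was 4.66, and the podocyte to mesangial ratio 4.47.

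*Tcf21* and *Foxd1* were high in podocytes and mostly below the minimum in the other cells. *Tcf21* read 1345, 1164 and 1580 in wild type podocytes, against 63.6, 65.7 and 209 in mesangial cells and 63.6, 59.4 and 53.9 in endothelial cells. Apart from mesangial array C, every wild type mesangial and endothelial array was below 100. The podocyte level of *Tcf21* was 14.2 times the mesangial level (6.91 to 29.1, adjusted p = 0.00105) with array C included, and at least 13.5-fold higher than the endothelial level (adjusted p = 1.07e-07).

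*Foxd1*, the stromal progenitor factor, was likewise a podocyte gene at this age in these arrays. It read 1113, 986 and 1013 in wild type podocytes, 35.6, 32.0 and 155 in mesangial cells, and 33.7, 36.8 and 38.1 in endothelial cells. The podocyte level was 18.5 times the mesangial level (7.43 to 45.8, adjusted p = 0.00191), again with array C, and at least 10.4-fold higher than the endothelial level (adjusted p = 3.61e-08). Without mesangial array C both genes were below 100 in the mesangial group, and podocytes were at least 13.5-fold higher for *Tcf21* (adjusted p = 4.22e-06) and at least 10.4-fold higher for *Foxd1* (adjusted p = 1.76e-06).

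The signal of both genes above 100 in mesangial cells came from array C alone. There *Tcf21* was at 15.3% of its wild type podocyte mean, *Foxd1* at 14.9% and *Nphs1* at 14.2%, against 3.09% to 4.93% for the 3 genes in arrays A and B. Mesangial minus endothelial differences of *Tcf21* (log2 0.70, adjusted p = 0.261) and *Foxd1* (0.63, adjusted p = 0.422) missed the threshold with array C, and without it neither gene reached the signal minimum in that comparison.

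**Figure D2:**
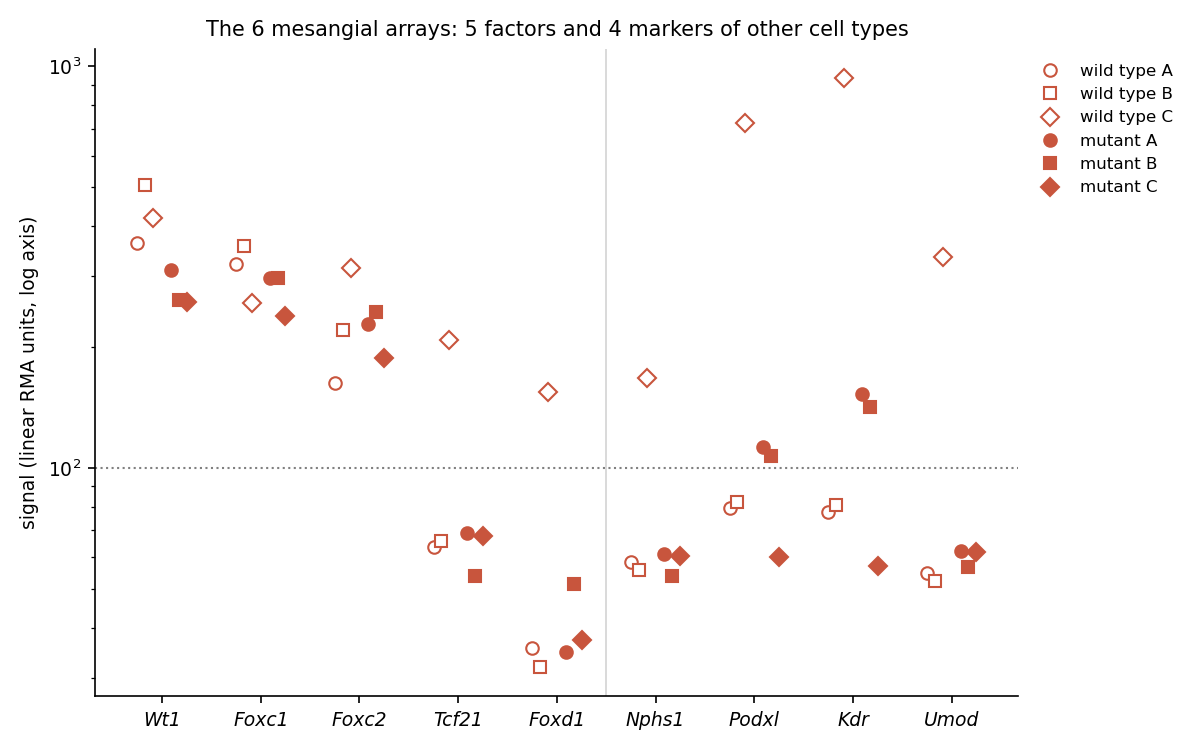
Signals in the 6 mesangial arrays on a log axis, for 5 of the factors (left) and for podocyte (*Nphs1*, *Podxl*), endothelial (*Kdr*) and tubule (*Umod*) genes (right), with each array given its own symbol. Wild type array C (open diamond) holds *Podxl* at 725, *Kdr* at 935, *Tcf21* at 209 and *Foxd1* at 155, while its *Wt1* signal of 419 lies between those of arrays A and B.

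The forkhead pair *Foxc1* and *Foxc2*, which share much of their role in kidney and vessel development, differed in distribution. *Foxc1* read 283, 269 and 267 in wild type podocytes, 322, 357 and 258 in mesangial cells, and 40.3, 41.6 and 43.9 in endothelial cells. The podocyte and mesangial arrays overlapped, and their ratio was 0.881 (0.712 to 1.09, adjusted p = 0.327). Endothelial cells were lower than both, podocytes being at least 2.73-fold higher (adjusted p = 2.16e-07) and mesangial cells at least 3.09-fold higher (adjusted p = 1.06e-05). Without array C the podocyte to mesangial ratio of *Foxc1* was 0.804 (adjusted p = 0.0675).

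The *Foxc1* signal of podocytes was set beside the mesangial markers of the same arrays. Mutant podocyte array C had the lowest summed mesangial markers of the podocyte arrays (945, the others 2512 to 3736), with 5 of 7 at 100 or more. Its *Foxc1* signal was 259, and the other podocyte arrays read 264 to 302. Mutant podocyte array C also had *Wt1* at 2525, the highest of all 18 arrays. The part of mesangial cells in the podocyte *Foxc1* signal was not tested.

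*Foxc2* fell in steps from podocytes to mesangial to endothelial cells. It read 1174, 1067 and 1105 in wild type podocytes, 163, 220.1 and 315 in mesangial cells, and 106, 101 and 105 in endothelial cells. The podocyte level was 4.97 times the mesangial (3.46 to 7.13, adjusted p = 0.000548) and 10.7 times the endothelial level (9.25 to 12.4, adjusted p = 7.92e-08). The mesangial level was 2.15 times the endothelial level (log2 1.11, interval 0.59 to 1.63, adjusted p = 0.00914). Array C held the highest mesangial *Foxc2* signal, and without it the mesangial to endothelial ratio was 1.82 (adjusted p = 0.00416).

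*Lmx1b* was close to the signal minimum throughout. It read 145, 129 and 153 in wild type podocytes, 99.3, 100.2 and 92.8 in mesangial cells, and 104, 94.1 and 98.9 in endothelial cells. Podocytes did not overlap with either group, with ratios of 1.46 (1.25 to 1.71, adjusted p = 0.00657) and 1.43 (1.22 to 1.69, adjusted p = 0.00441), both under the fold of 1.5 that the study's screen asks for. Mesangial and endothelial cells overlapped (ratio 0.984, 0.854 to 1.13, adjusted p = 0.858). Its highest signal in any array was 162.

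**Figure D3:**
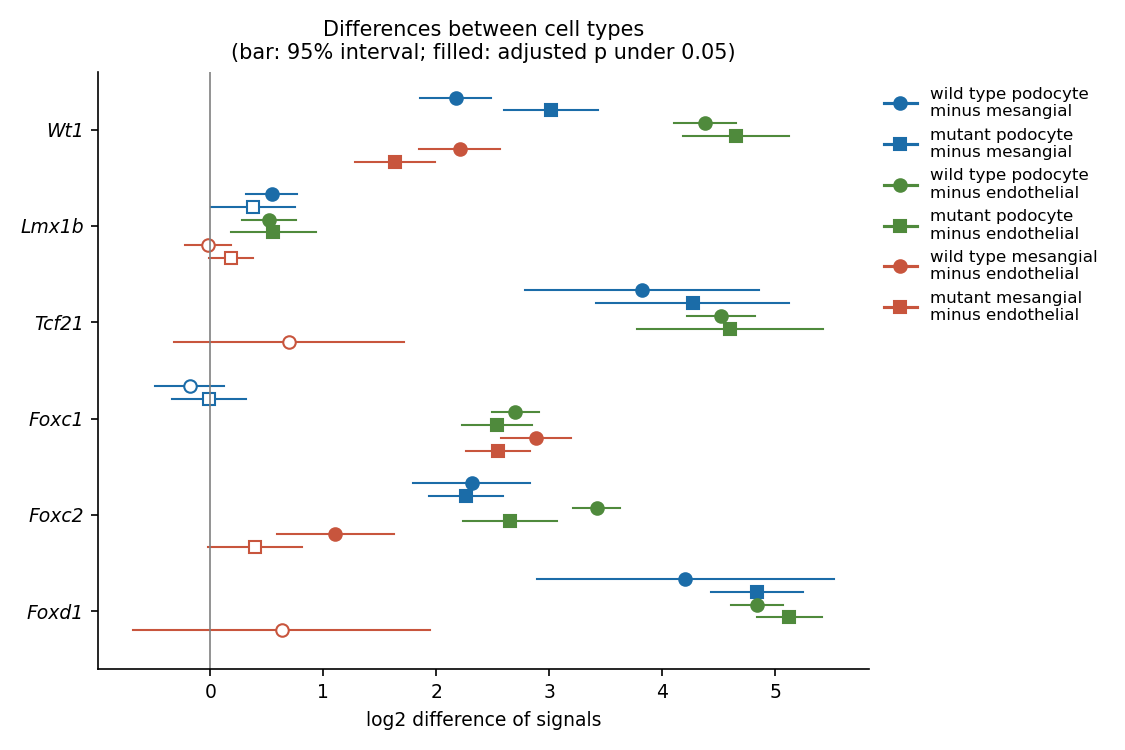
Log2 differences of the signals of each factor between cell types, separately in wild type (circles) and mutant (squares) arrays, with 95% intervals; filled symbols have an adjusted p under 0.05. Differences against groups below 100 in every array (*Tcf21*, *Foxd1* and *Foxc1* against endothelial cells, *Tcf21* and *Foxd1* against mutant mesangial cells, *Lmx1b* against mutant endothelial cells) are those of the signals as measured, and their size depends on the background. *Foxc1* stands at -0.18 and -0.01 for podocytes minus mesangial cells in wild type and mutant arrays.

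Over all 6 groups the order of the *Wt1* levels was mutant podocytes, wild type podocytes, wild type mesangial, mutant mesangial, wild type endothelial and mutant endothelial cells. Its podocyte groups overlapped with each other, as did its endothelial groups, and the other neighbours in that order did not. For *Tcf21* and *Foxd1* the podocyte groups, which overlapped with each other, lay above every other array. Mutant podocytes read 1096, 1107 and 1294 for *Foxd1*, and the highest array elsewhere read 155. For *Foxc1* the 4 podocyte and mesangial groups overlapped, with 264, 302 and 259 in mutant podocytes and 298, 297 and 239.7 in mutant mesangial cells, and all lay above the endothelial arrays, whose mutants read 51.2, 42.5 and 48.7.

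For *Foxc2* the podocyte groups came first (1076, 986 and 1091 in mutants), then the mesangial groups and mutant endothelial cells, with overlap from 188 to 196 between mutant mesangial and mutant endothelial arrays, and wild type endothelial cells last. For *Lmx1b* mutant podocytes read 119, 114 and 162 and overlapped with wild type podocytes, above all mesangial and endothelial arrays, whose highest was 104.

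The cell types were compared in the *Cd2ap* mutants as well, a set of comparisons added after the wild type values had been seen. All 6 factors were higher in mutant podocytes than in mutant endothelial cells, where 13.6% of all clusters were. *Wt1* was 25.1 times and *Foxc2* 6.30 times the endothelial level, and podocytes were at least 12.2-fold higher for *Tcf21*, 11.6-fold for *Foxd1*, 2.75-fold for *Foxc1* and 1.30-fold for *Lmx1b* (adjusted p at most 0.0277 for each of the 6). Against mutant mesangial cells, 4 of the 6 were higher in podocytes, where 7.72% of all clusters were, with ratios of 8.09 for *Wt1* and 4.79 for *Foxc2* and the same bounds for *Tcf21* and *Foxd1*. *Lmx1b* (ratio 1.30, adjusted p = 0.127) and *Foxc1* (0.992, adjusted p = 0.959) did not pass. Mutant mesangial cells were higher than mutant endothelial cells in *Foxc1* (at least 2.77-fold) and *Wt1* (3.11 times), beside 12.8% of all clusters, and *Foxc2* gave 1.31 times (adjusted p = 0.126). *Tcf21* and *Foxd1* were below 100 in all mutant mesangial and endothelial arrays. The mutant and wild type comparisons use different arrays, but each group enters more than 1 of them.

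In podocytes, where the 6 factors were mostly highest, none differed between genotypes. The adjusted p was under 0.05 for 0 of the 6 and the unadjusted p for 0 of the 6 as well, beside 0.0578% of all 12113 clusters at the adjusted threshold and 5.61% at the study's screen, read here as an unadjusted p under 0.05 and a fold over 1.5. The adjusted count over all clusters depends on 1 array, being 7 with all arrays and 344 without mutant podocyte array A, where 0 of the 6 factors passed too. The median log2 difference was -0.04 for the 6 factors and -0.04 for all clusters tested. The intervals bound how far the groups may differ. *Foxc1* had a mutant to wild type ratio of 1.01 (0.827 to 1.23), *Foxc2* of 0.942 (0.779 to 1.14), *Foxd1* of 1.12 (0.912 to 1.38), *Wt1* of 1.17 (0.886 to 1.54) and *Lmx1b* of 0.917 (0.701 to 1.20). The part of the marker sums that differed between these arrays (podocyte, mesangial, endothelial, smooth muscle and parietal) in these ratios was not tested.

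The widest interval in podocytes belonged to *Tcf21*. Mutant podocytes read 1642, 639 and 1718, so array B lay far below the other mutant arrays and the lowest wild type array (1164). The ratio was 0.900 (0.499 to 1.62, adjusted p = 0.879), and without array B the log2 difference was 0.31 in place of -0.15 (adjusted p = 0.492). In the same array *Foxd1* read 1107 and *Wt1* 2519, within or above the range of the wild type podocytes. *Wt1* in mutant podocytes was 1755, 2519 and 2525 against 1851 to 2048 in the wild type, with 1 mutant array below and the others above, and the groups overlapped.

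In mesangial cells *Wt1* was lower in the mutants. The wild type arrays read 363, 506 and 419 and the mutant arrays 310.4, 262 and 259, and the groups did not overlap. The mutant level was 0.650 of the wild type level (0.513 to 0.822), a log2 difference of -0.62 ± 0.14 (SE). This passed the study's screen (unadjusted p = 0.00358, limma) and missed the threshold after adjustment over 11457 clusters (adjusted p = 0.0728). The other 5 factors passed neither, so 1 of 6 was called by the screen and 0 of 6 after adjustment, beside 5.19% and 2.92% of all clusters.

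The *Wt1* difference did not rest on the array with podocyte signal. Without array C it was -0.63 (adjusted p = 0.122), and over all arrays left out in turn it lay between -0.74 and -0.50 with adjusted p from 0.0798 to 0.209. Summed mesangial markers were lower in the mutant arrays as well (6187 to 7031 against 8713 to 9639). Summed parietal epithelial markers were higher (554 to 656 against 432 to 442), and smooth muscle and juxtaglomerular markers overlapped (1815 to 3068 against 1571 to 1933). The part of these cells in the *Wt1* difference was not tested. *Foxc1* in mesangial cells had a ratio of 0.895 (0.698 to 1.15) and *Lmx1b* of 1.03 (0.907 to 1.17). *Foxc2* had a ratio of 0.977 (0.660 to 1.45), with 229, 245 and 188 in the mutants within the wild type range. Array C held the highest wild type signal, and without it the ratio was 1.16 (log2 0.21, adjusted p = 0.561), with 2 mutant arrays above both wild type arrays. *Tcf21* (0.661, adjusted p = 0.485) and *Foxd1* (0.723, adjusted p = 0.680) entered this comparison through wild type array C, and without it every mesangial array was below 100.

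In endothelial cells *Foxc2*, which is also known for its role in vessels and valves, was higher in the mutants. Mutant arrays read 184, 128 and 196 and wild type arrays 106, 101 and 105, with no overlap. The ratio was 1.60 (1.24 to 2.06), a log2 difference of 0.68 ± 0.16 (SE) that passed the screen (unadjusted p = 0.00279) and missed the adjusted threshold over 11330 clusters (adjusted p = 0.0923). Of the 6 factors 3 reached the signal minimum in endothelial cells. Of these, 1 was called by the screen, as 3.82% of all clusters were, and 0 after adjustment, as 1.29% were.

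Mutant array B held the lowest of the mutant *Foxc2* signals, and without it the log2 difference was 0.87 with an adjusted p of 0.0124 (limma). Over all 6 arrays left out in turn it lay between 0.56 and 0.87, with adjusted p from 0.0124 to 0.294. The podocyte marker *Nphs1* read 52.8 to 56.3 in mutant endothelial arrays and 60.2 to 62.3 in the wild type. Summed mesangial markers were 508 to 566 in the mutants and 579 to 603 in the wild type, and summed tubule markers 387 to 415 and 447 to 459. Summed leukocyte markers were 370.2 to 664 and 385 to 437, and their part in the *Foxc2* difference was not tested. *Wt1* in endothelial cells had a ratio of 0.967 (0.748 to 1.25) and *Lmx1b* of 0.892 (0.774 to 1.03). *Tcf21*, *Foxc1* and *Foxd1* were below 100 in all 6 endothelial arrays.

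**Figure D4:**
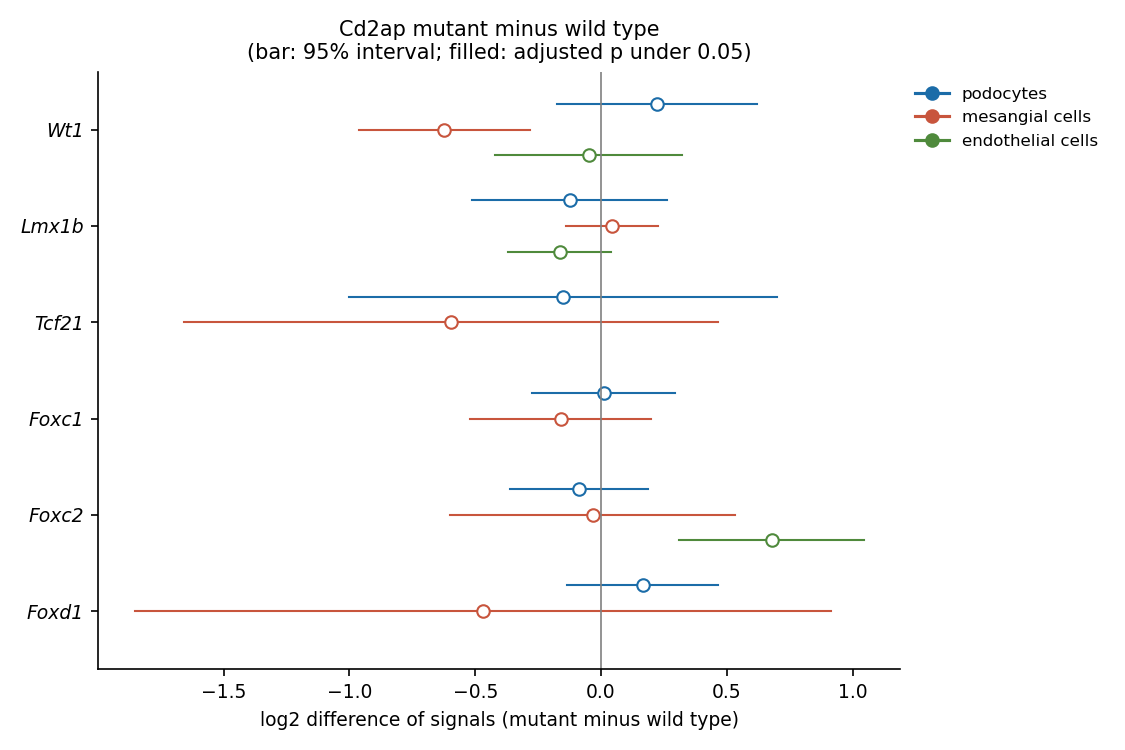
Log2 differences of the signals of each factor between *Cd2ap* mutant and wild type arrays in podocytes, mesangial cells and endothelial cells, with 95% intervals; open symbols have an adjusted p of at least 0.05, as all do here. The intervals of *Wt1* in mesangial cells (-0.96 to -0.28) and *Foxc2* in endothelial cells (0.31 to 1.04) lie to one side of 0.

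Whether the genotype effects differed between cell types was tested as interaction contrasts over all 18 arrays and 13523 clusters. The factors that reached the minimum in at least 1 array of both cell types, array C aside, were *Wt1*, *Lmx1b*, *Foxc1* and *Foxc2* for podocytes minus mesangial cells and *Wt1*, *Lmx1b* and *Foxc2* for the contrasts with endothelial cells. For the others a contrast cannot be read, since 1 cell type was below 100 throughout. The contrasts of *Lmx1b*, and those of *Wt1* with endothelial cells, also rest on signals near the minimum, since *Lmx1b* reached 100 in 2 of 6 mesangial and 1 of 6 endothelial arrays and *Wt1* in 2 of 6 endothelial arrays. After adjustment 0 of 4, 0 of 3 and 0 of 3 passed, beside 0.717% of all clusters for podocytes minus mesangial cells, 2.11% for podocytes minus endothelial cells and 1.07% for endothelial minus mesangial cells. Unadjusted p-values under 0.05 were those of the *Wt1* and *Foxc2* contrasts given next. No share of all clusters at that level is given here, so no count is read from them. *Wt1* differed most between podocytes and mesangial cells, by 0.84 on the log2 scale (0.33 to 1.35, unadjusted p = 0.00293, adjusted p = 0.140, limma). Over 12 arrays left out in turn this contrast lay between 0.72 and 1.02, with adjusted p from 0.0253 to 0.293. The value of 1.02 (adjusted p = 0.0253) was the one without mutant podocyte array A. Between endothelial and mesangial cells *Wt1* differed by 0.57 (adjusted p = 0.254). *Foxc2* gave -0.76 for podocytes minus endothelial cells (-1.34 to -0.19, adjusted p = 0.117) and 0.71 for endothelial minus mesangial cells (adjusted p = 0.214). Without wild type mesangial array C the latter was 0.47 (unadjusted p = 0.0587, adjusted p = 0.394, limma), no longer under 0.05 unadjusted. These contrasts share arrays with each other and with the comparisons within each cell type. If the mesangial controls marked +/- were heterozygous, the mesangial genotype effect had another baseline than the others, and a difference in genotype effect and one in baseline cannot be told apart here.

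Lists of podocyte genes and of genes tied to these factors were read beside the factors. Of 20 podocyte differentiation and slit diaphragm genes, 17 were higher in wild type podocytes than in mesangial cells, 1 was lower and 2 did not pass, where 10.5% of all clusters were higher and 16.3% lower. The median log2 difference was 3.09 beside -0.04 over all clusters tested, and 17 passed also without mesangial array C (median 3.57). The log2 differences named by size were those of *Ptpro*, a receptor phosphatase of podocytes (4.80), *Enpep*, a cell surface aminopeptidase (4.24) and *Podxl* (4.05). Array C held the highest mesangial signal of all 3. Without it they were below 100 in the mesangial group, and podocytes were at least 25.1-fold higher for *Ptpro* (adjusted p = 2.96e-06), 34.4-fold for *Enpep* and 27.8-fold for *Podxl* (adjusted p = 1.76e-06 for both). *Trpc6*, a calcium channel mutated in hereditary glomerulosclerosis, was the one that was lower in podocytes (-1.38, adjusted p = 0.00139), and read 261, 258 and 187 in wild type mesangial cells against 102, 75.4 and 91.6 in podocytes. Against endothelial cells all 20 were higher in podocytes, beside 16.5% of all clusters (median 2.93, or 2.69 with groups below 100 set to 100).

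Between genotypes none of the 20 passed in podocytes after adjustment, beside 0.0578% of all clusters (median -0.21, beside -0.04), and 2 of the 20 were lower by the screen, which called 5.61% of all clusters in either direction. The largest changes were those of *Ptpro* (-0.65, adjusted p = 0.267) and *Thsd7a* (-0.60, adjusted p = 0.177). In mesangial cells 2 of 18 tested fell, beside 2.92% of all clusters called in either direction. They were *Robo2*, an axon guidance receptor that restrains nephrin signalling (-1.54, adjusted p = 0.0116) and *Myo1e*, a motor protein of podocytes (-0.58, adjusted p = 0.0207). Without array C, 11 of the 20 reached the signal minimum there and 2 fell. With 1 mesangial array left out in turn, *Robo2* passed in 4 of 6 cases and *Myo1e* in 1 of 6, and both kept their direction. In endothelial cells 0 of 10 passed, beside 1.29% of all clusters.

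Of 13 genes bound by WT1 or dependent on it in podocytes, all 13 were higher in wild type podocytes than in mesangial cells (median 2.74, beside 10.5% of all clusters) and 12 were higher than in endothelial cells (median 3.22, beside 16.5%). In 11 of the 13 a group was below 100 in every array of the endothelial comparison, and with such groups set to 100 the median was 2.27. The log2 differences from endothelial signals below 100 included those of *Plce1*, a phospholipase mutated in nephrotic syndrome (4.80), *Robo2* (4.44) and *Magi2*, a scaffold of the slit diaphragm (4.38). *Inf2*, a formin, gave 0.21 (adjusted p = 0.290). Between genotypes 0 of the 13 passed in podocytes, beside 0.0578% of all clusters. There *Sulf1*, which trims sulfate groups from heparan sulfate, gave -1.47 (adjusted p = 0.135) and the chemokine *Cxcl12* 0.79 (adjusted p = 0.153).

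In mesangial cells, where *Wt1* itself was lower by the screen alone, *Robo2* fell and *Sulf1* rose among 9 tested, beside 2.92% of all clusters called in either direction. *Robo2* read 305, 273 and 399 in wild type and 106, 98.3 and 128 in mutant mesangial cells. *Sulf1* read 87.8, 90.5 and 145 in wild type and 230.5, 304 and 387 in mutant mesangial cells (1.52, adjusted p = 0.0361), and 758, 689.96 and 697 in wild type and 405, 215 and 195 in mutant podocytes. Its groups did not overlap in either cell type and moved in opposite directions, with an interaction of -2.99 (adjusted p = 0.000582) that passed with each of 12 arrays left out. The mesangial rise alone passed in 1 of 6 such cases (adjusted p up to 0.130). Without array C, 4 of the 13 genes were tested in mesangial cells, with 1 higher and 1 lower.

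Of 4 genes tied to LMX1B, all 4 were higher in wild type podocytes than in mesangial cells (median 2.06, beside 10.5% of all clusters) and than in endothelial cells (median 2.26, or 1.98 with groups below 100 set to 100, beside 16.5%), while *Lmx1b* itself differed by 0.54 and 0.52. The type IV collagen chains of the mature basement membrane, *Col4a3* (2.23, adjusted p = 0.000231) and *Col4a4* (1.90, adjusted p = 0.000231), had higher differences from mesangial cells than *Cd2ap* (0.78, adjusted p = 0.00692). Between genotypes 0 of 4 passed in podocytes and in mesangial cells and 0 of 1 in endothelial cells, beside 0.0578%, 2.92% and 1.29% of all clusters.

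Of 9 known cofactors and binding partners of the factors, 0 were higher and 3 lower in wild type podocytes than in mesangial cells (median -0.17), where 10.5% of all clusters were higher and 16.3% lower. The 3 were *Tcf12* (-0.71), *Pawr* (-0.68) and *Tcf4* (-0.58), and without mesangial array C the count was 2. *Tcf12*, *Tcf4* and *Tcf3* encode basic helix-loop-helix proteins with which TCF21 can pair, and *Pawr* encodes PAR-4, a WT1-binding protein. Against endothelial cells 3 were higher and 3 lower (median 0.13), beside 16.5% and 22.2% of all clusters, with *Pawr* at 1.70, *Tcf4* at -1.30 and *Cited2* at 1.25. In mesangial minus endothelial cells 3 were higher, led by *Pawr* (2.38), and 2 were lower, *Tcf4* (-0.72) and *Tcf3* (-0.36), beside 15.5% and 15% of all clusters. Between genotypes 0 of the 9 passed in each cell type, where 0.0578% of all clusters were called in podocytes, 2.92% in mesangial and 1.29% in endothelial cells.

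Among 12 other transcription factors of kidney development, 5 were below 100 in all 18 arrays, namely *Pax2*, *Eya1*, *Six2*, *Osr1* and *Sox9*. Of 6 tested, 4 were higher in wild type podocytes than in mesangial cells, beside 10.5% of all clusters, among them *Dach1* (2.96), *Pax8* (0.63) and *Sall1* (0.61). *Pax8* and *Sall1* were close to 100 in podocytes and below it in every mesangial array. Between genotypes 0 of 7 passed in podocytes, 0 of 4 in mesangial and 0 of 2 in endothelial cells, beside 0.0578%, 2.92% and 1.29% of all clusters, and in podocytes *Pax8* gave 0.64 (adjusted p = 0.237) and *Hoxd11* 0.49 (adjusted p = 0.437).

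Of 44 forkhead family members on the array, 19 (43.2%) reached 100 in at least 1 array, a share near the 46.9% of all 28856 clusters, and 4 reached 500. Those tested in podocytes against mesangial cells numbered 17, of which 6 were higher and 0 lower, beside 10.5% and 16.3% of all clusters, with *Foxd1* (4.21, or at least 3.37 without array C) and *Foxc2* (2.31) ahead of *Foxp1* (0.48) and *Foxj3* (0.47). Without mesangial array C the count fell to 3. *Foxo1*, the insulin-regulated member, was lower in podocytes than in endothelial cells (-1.44, adjusted p = 1.94e-05). None of the family passed between genotypes, of 19 tested in podocytes, 14 in mesangial and 12 in endothelial cells, where the same shares of all clusters were called.

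The genes most closely related to the factors, or beside the forkhead factors, were read as a list too. Of 13 paralogs, related factors and forkhead neighbours on the array, 4 (30.8%) reached 100 in at least 1 array, beside 46.9% of all clusters, and of the 2 tested in each wild type comparison 0 were higher in podocytes, where 10.5% of all clusters were higher than in mesangial and 16.5% than in endothelial cells. One of them, *Egr1*, was lower in podocytes than in endothelial cells (-0.63, adjusted p = 0.00154), as 22.2% of all clusters were. *Foxf2* and *Foxq1*, which lie beside *Foxc1* on chromosome 13, and *Foxf1a* and *Foxl1*, which lie beside *Foxc2* on chromosome 8, were below 100 in all 18 arrays, as was the *Lmx1b* paralog *Lmx1a*. The one that passed between genotypes was *Egr1*, an immediate early gene, which rose in mutant mesangial cells (0.80, adjusted p = 0.0396) from 101, 98.5 and 93.1 to 194, 181 and 138, where 2.92% of all clusters were called. The mutant signals did not overlap with the wild type in podocytes either, with 239, 158 and 146 against 92.2, 98.9 and 83.7 (0.95, adjusted p = 0.143), nor in endothelial cells, with 257, 148 and 311 against 145, 144 and 134 (0.69, adjusted p = 0.200). The mesangial adjusted p of *Egr1* was 0.0245 to 0.141 with 1 array left out, passing in 1 of 6 cases, and without array C no gene of this list passed. Of the genes next to the factors, *Eif3m*, a translation initiation factor subunit beside *Wt1* on chromosome 2, had group means of 2052 and 2033 in wild type and mutant podocytes and 663 to 877 elsewhere. *Eya4*, beside *Tcf21* on chromosome 10, read 104 and 94.2 in podocytes and 35.8 to 39.6 elsewhere. RefSeq places *Gm10824* over part of *Tcf21*, and *C130021I20Rik* and *Gm39790* over part of *Lmx1b*, and signal from these cannot be told apart here from that of the factor.

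The likeness of the patterns was measured as the root mean square difference of log2 signals over the 18 arrays, each gene centred on its own mean. Of the 15 pairs of factors, *Tcf21* and *Foxd1* were nearest, at 0.41, followed by *Wt1* and *Foxc2* at 0.73. *Foxc1* was nearest to *Foxc2* at 1.08, and *Lmx1b* and *Foxd1* were farthest apart at 2.07. Among 11131 other genes, those nearest to *Tcf21* were *Rdh9* (0.28), *Plce1*, *Nphs1* and *Pak1*, and those nearest to *Foxd1* were *Tmem54* (0.21), *Pak1*, *Nphs1* and *Pdpn*, which encodes podoplanin of the podocyte surface.

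The genes nearest to *Wt1* were picked by their profile over these arrays, so their intermediate mesangial level follows from that choice. They were *Arhgap24* (0.42), *Angptl2*, *Robo2* and *Epb4.1l5*, with wild type mesangial means of 275, 452, 326 and 149.8 and podocyte means of 1268, 1482, 1204 and 1154. Among those nearest to *Foxc2* were *Colec12* (0.28), *Kank1* and *Ptprj*. Those nearest to *Foxc1* were *Enah* (0.27), *Myo1d*, *Fam184a* and *Ptpn13*. By the same choice, each had lower group means in endothelial cells than in both other types. Below 100 these profiles hold background as well. The group means of *Lmx1b* spanned 1.61 times, too little for such a search under the 2-fold rule set for it.

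**Figure D5:**
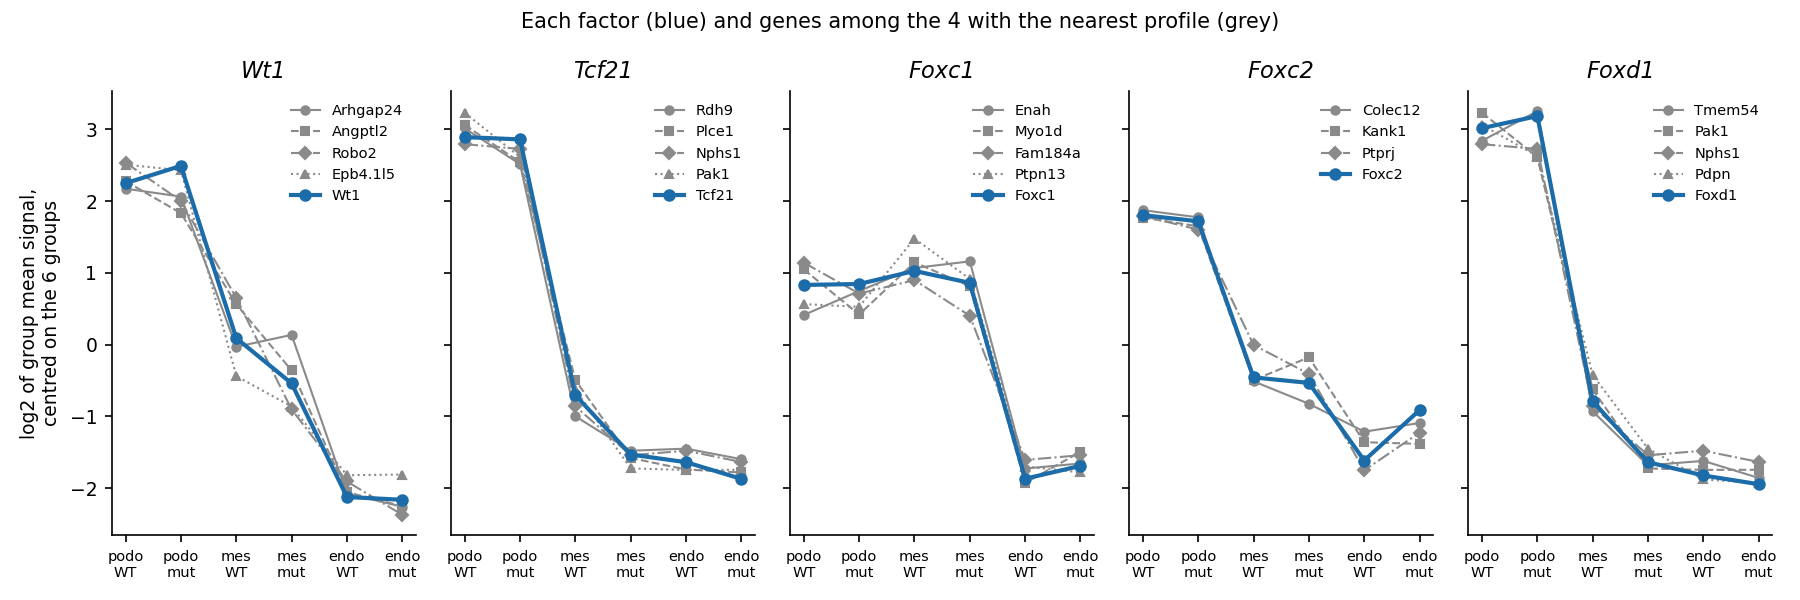
Log2 of the group mean signals of 5 factors (blue) and of genes among the 4 nearest to each (grey), each centred on its mean over the 6 groups. *Tcf21*, *Foxd1* and their nearest genes drop from podocytes to low levels elsewhere, *Wt1* and *Foxc2* pass through an intermediate mesangial level, and *Foxc1* drops between mesangial and endothelial cells.

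The promoters of the nearest pair and of *Foxc1*, which had the different distribution, are printed to set the sequence beside the pattern. They are the 250 bases before the RefSeq start in GRCm38.p6, read 5′ to 3′ on the strand of the gene, with capitals for a match of any motif searched. The *Tcf21* sequence lies at chr10:22820144-22820393 on the minus strand, *Foxd1* at chr13:98353995-98354244 on the plus strand and *Foxc1* at chr13:31806396-31806645 on the plus strand.
Tcf21: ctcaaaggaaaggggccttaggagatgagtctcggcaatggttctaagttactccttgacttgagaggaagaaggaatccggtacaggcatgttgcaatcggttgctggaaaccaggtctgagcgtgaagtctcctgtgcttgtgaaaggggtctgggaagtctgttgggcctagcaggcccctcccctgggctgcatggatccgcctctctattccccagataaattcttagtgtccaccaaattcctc
Foxd1: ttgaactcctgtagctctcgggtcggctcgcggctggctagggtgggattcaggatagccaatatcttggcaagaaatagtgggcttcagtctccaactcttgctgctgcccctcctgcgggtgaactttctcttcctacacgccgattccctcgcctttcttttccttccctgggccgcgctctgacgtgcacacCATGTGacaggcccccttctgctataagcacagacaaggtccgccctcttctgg
Foxc1: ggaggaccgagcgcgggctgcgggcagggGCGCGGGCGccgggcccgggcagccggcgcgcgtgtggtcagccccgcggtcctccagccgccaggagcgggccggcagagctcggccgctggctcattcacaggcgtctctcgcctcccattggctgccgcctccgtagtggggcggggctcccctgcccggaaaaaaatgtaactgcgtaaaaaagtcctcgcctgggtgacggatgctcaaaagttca
Searched on both strands were GNGNGGGNG, letters bound by zinc fingers of the WT1 and EGR type, CANNTG, the E-box of basic helix-loop-helix proteins, TGTTTA, a forkhead core, and TAATTA, a homeodomain core. *Tcf21* held none of them, *Foxd1* held 1 E-box that begins 54 bases before the start, and *Foxc1* held 1 zinc finger match that begins 221 bases before it. *Lmx1b*, at chr2:33641099-33641348 on the minus strand, held 3 overlapping zinc finger matches and 1 E-box. Of 32851 promoters of this length in the RefSeq table, 35.8% held the zinc finger letters, 66.2% the E-box, 12.0% the forkhead core and 4.84% the homeodomain core. The G and C content was 52.4% for *Tcf21*, 57.2% for *Foxd1*, 70.8% for *Foxc1* and 65.2% for *Lmx1b*, beside a median of 52.4% over all promoters.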

How the data were processed

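RNA of sorted cells was amplified once by Ribo-SPIA and hybridized to Mouse Gene 1.0 ST arrays. Per the labels and the file header, the deposited intensity values are linear signals from RMA (background subtraction, quantile scaling, probe summary), placed on mm9. The series record names other arrays and software, so this description is that of the header and the sample records. The 18 further columns, which the header calls normalized, were not used.

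Groups came from the labels, with 3 arrays in each of 6. The log2 signals were compared with lmFit and eBayes of limma 3.58.1 (R 4.3.3). A cluster was tested if any array compared reached 100 (any of the 18 for interactions), with Benjamini-Hochberg adjustment over all clusters tested. The study's screen, a p under 0.05 and a fold over 1.5, was taken as unadjusted, since no adjustment is named for it. The fits were tested on simulated data with 200 changed clusters. Intervals are 95% and, like the p-values, cover the spread between these arrays, which the study calls biological replicates. The number of arrays limits the precision.

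Named genes are the 6 factors, *Cd2ap*, up to 4 passing genes of a list by size of difference (2 where none passed), defining markers, and the 4 genes nearest in profile to a factor. Outside that rule, *Trpc6*, *Inf2*, *Foxo1*, *Cxcl12*, *Tcf3*, the neighbours *Eif3m* and *Eya4* and the factors given as below 100 were picked once their values were known. The members, lists, markers and alternatives were chosen with earlier results of these data known. The comparisons of cell types within mutants were added later. Alternatives were other signal minimums, 1 fit of all arrays, an intensity trend with robust estimation, array medians subtracted, a second quantile normalization, a lower background (each array's 5th percentile subtracted and 16 added) and each array left out. Promoter sequences and gene neighbours came from RefSeq tables (GRCm38.p6). Some genes that the rule would name are not reported here.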

Additional observations from a re-analysis of the deposited data

Results flagged for a closer look

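Among the genes read beside the factors, the genotype effect on *Sulf1*, a WT1-bound gene, differed between cell types by a test of the difference itself. The effect in podocytes was lower than that in mesangial cells by a log2 difference of -2.99 (adjusted p = 0.000582, limma), and the effect in endothelial cells was lower than that in mesangial cells by -1.78 (adjusted p = 0.0257). *Sulf1* was below 100 in all 6 endothelial arrays, so this second value rests on the mesangial signals and says nothing of an endothelial effect. The first passed in all 12 fits with an array left out and the second in 4 of 12. Both contrasts share the mesangial arrays.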

How the results depend on the processing

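Of 740 recomputed log2 differences of the 6 factors, 710 kept their direction and side of the threshold, 26 changed sign and 4 passed where the reported value did not. The counts of factors called between wild type cell types stayed at 5, 6 and 3 under every alternative run. In mesangial cells 1 factor, *Wt1*, was called between genotypes with 100 in all arrays of 1 group (adjusted p = 0.045) and with an intensity trend and robust estimation (adjusted p = 0.0376). With an array left out the count was 0 to 1 in endothelial cells (*Foxc2*, without mutant array B) and 0 to 1 for podocytes minus mesangial cells (*Wt1*, without mutant podocyte array A).

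Signs that changed belonged to log2 differences whose intervals included 0, and the cause was not tested. With array medians subtracted, the genotype difference was -0.022 for *Foxc1* in podocytes and 0.023 for *Wt1* in endothelial cells, the wild type mesangial minus endothelial difference of *Lmx1b* was 0.027, and the interaction for podocytes minus endothelial cells was -0.064 for *Lmx1b* and -0.025 for *Tcf21*. With a second quantile normalization *Foxc2* in mesangial cells gave 0.021. With an array left out, the genotype difference ranged from -0.40 to 0.31 for *Tcf21* and from -0.059 to 0.052 for *Foxc1* in podocytes, from -0.26 to 0.21 for *Foxc2* in mesangial cells and from -0.20 to 0.084 for *Wt1* in endothelial cells. *Lmx1b* ranged from -0.060 to 0.013 for wild type mesangial minus endothelial cells. The interaction for podocytes minus mesangial cells ranged from -0.12 to 0.91 for *Tcf21*, from -0.30 to 0.18 for *Foxc2* and from -0.10 to 1.04 for *Foxd1*. That for podocytes minus endothelial cells ranged from -0.12 to 0.13 for *Lmx1b* and from -0.17 to 0.54 for *Tcf21*, and that for endothelial minus mesangial cells from -0.20 to 0.66 for *Tcf21* and from -0.38 to 0.75 for *Foxd1*.

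Over all clusters, 7 were called between genotypes in podocytes (0 to 837 under the alternatives, 837 with all 18 arrays in 1 fit and 344 without mutant podocyte array A), 335 in mesangial (50 to 729) and 146 in endothelial cells (49 to 271). Between wild type cell types the counts were 3193 (2078 to 3532), 4654 (3790 to 4931) and 3646 (2478 to 4117), and for the interactions 97 (44 to 423), 285 (30 to 1865) and 145 (85 to 262), in the order of the text. The percentages given for all clusters depend on the setting accordingly, while the count of factors called between genotypes in podocytes was 0 in each. In the lists, the largest spreads were those of podocyte genes lower in mutant mesangial cells (2, from 0 to 4) and of forkhead genes higher in wild type podocytes than mesangial cells (6, from 2 to 6). No paired analysis was possible because the array numbers in the labels are not shared between groups. An average over several clusters of a gene gave no value, since each factor has 1. A group with every array below 100 gives only a bound on a fold.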
